A study of Arabidopsis thaliana with 24 samples.

Results

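Stem-cell nuclei of 2 single mutants of Arabidopsis thaliana, ago5 and ago9, were compared directly with each other by whole-genome bisulfite sequencing, in which cytosines that survive bisulfite treatment are called methylated. The groups were taken from the genotype and cell type in the sample titles and comprised 8 of the 24 samples of the series. Each genotype had 4 samples, made up of 2 replicates that were each sequenced in 2 runs. Both genotypes were in the Col-0 background, and neither group was given a treatment. Nuclei came from seedlings 7 days after germination, grown in 16 h of light and 8 h of dark, and between 3000 and 4000 nuclei per replicate were sorted for the fluorescent protein mCherry. The labels used here name neither the mutant alleles nor the promoter that drives mCherry. The deposited table gives 1 column of calls per genotype, context and cell type, here called a pool. The stem-cell pools of the wild type (wt21) and of ago59, a label not spelled out further, and the sperm pools of ago5 and ago9 (50000 nuclei per replicate, from pollen at 35 days) are given beside the comparison.

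ARGONAUTE (AGO) proteins bind small RNAs and are guided by them to matching transcripts. In Arabidopsis, AGO9 belongs with AGO4 and AGO6 to the branch that takes part in RNA-directed DNA methylation, and AGO5 belongs to the branch of AGO1 and AGO10. Plants methylate cytosines in 3 contexts, CG, CHG and CHH, in which H is A, C or T. MET1 copies CG methylation after replication, CMT3 maintains CHG methylation at chromatin that carries histone H3 methylation, and CHH methylation is laid down by DRM2 under the direction of small RNAs and by CMT2 in long heterochromatic elements.

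The ago5 stem-cell pool held 289170095 cytosine calls and the ago9 pool 233474571 over 69289 annotated features, of which 68992 are nuclear. Transposable elements had a median of 19 CG calls in ago5 and 16 in ago9, 16 and 14 CHG calls, and 148 and 122 CHH calls. Genes were covered by a median of 787 and 639 CG calls, 828 and 675 CHG calls, and 3581 and 2923 CHH calls. A single read can yield several calls, which are not independent, and every interval below covers counting error only. With 1 pool per genotype no difference has a replicate check and none was tested. Chloroplast DNA, which is unmethylated and so reads out incomplete conversion, had a CHH level of 0.312% (Wilson 95% interval 0.309 to 0.316) in ago5 and 0.307% (0.303 to 0.311) in ago9. The same level was 1.34% in ago5 sperm and 4.56% in ago9 sperm. There it rested on 18577 and 29474 calls, or 0.0125% and 0.0191% of CHH calls, against 4.51% and 4.73% in stem-cell nuclei. Genes averaged 1.18% and 1.19% CHH in the same sperm pools, below both chloroplast levels. In sperm the chloroplast level was therefore not taken as the rate of incomplete conversion. The sequence listed as mCherry had 0 calls in every pool, so the sort could not be checked from it.

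The 2 mutated genes themselves were read first. Across AGO5, on chromosome 2 (TAIR10, chr2:11871378-11876989, plus strand), 37 of 3624 CHG calls were methylated in the ago5 pool, 9 of 3142 in ago9, and 6 of 3683 in wt21. These are levels of 1.02% (0.742 to 1.40) in ago5, 0.286% (0.151 to 0.544) in ago9 and 0.163% in wt21, with 0.808% in ago59. The pools labelled ago5 and ago59 were thus the higher pair at AGO5, and their CHG intervals lay clear of those of ago9 and wt21. AGO9, on chromosome 5 (chr5:7192239-7198381, plus strand), gave the mirror image. There, 28 of 3355 CHG calls were methylated in ago9, or 0.835% (0.578 to 1.20), against 5 of 3950 in ago5, or 0.127% (0.0541 to 0.296). wt21 had 0.281% and ago59 0.591% across AGO9, so the ago9 and ago59 pools were the higher pair. In sperm, the CHG level of AGO5 was 2.29% in ago5 and 0.913% in ago9, and that of AGO9 was 0.789% in ago5 and 1.5% in ago9. The CG level across AGO5 went the other way in stem-cell nuclei, at 0.946% in ago5, 2.61% in ago9, 2.31% in wt21 and 0.935% in ago59. Among the 10 argonaute genes, AGO5 had the highest CHG difference, ago5 minus ago9, at 0.735 points, and AGO9 had the lowest at -0.708 points. All levels at both genes were low, and neither locus differed by the 10 points used below to call a feature.

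**Figure D1:**
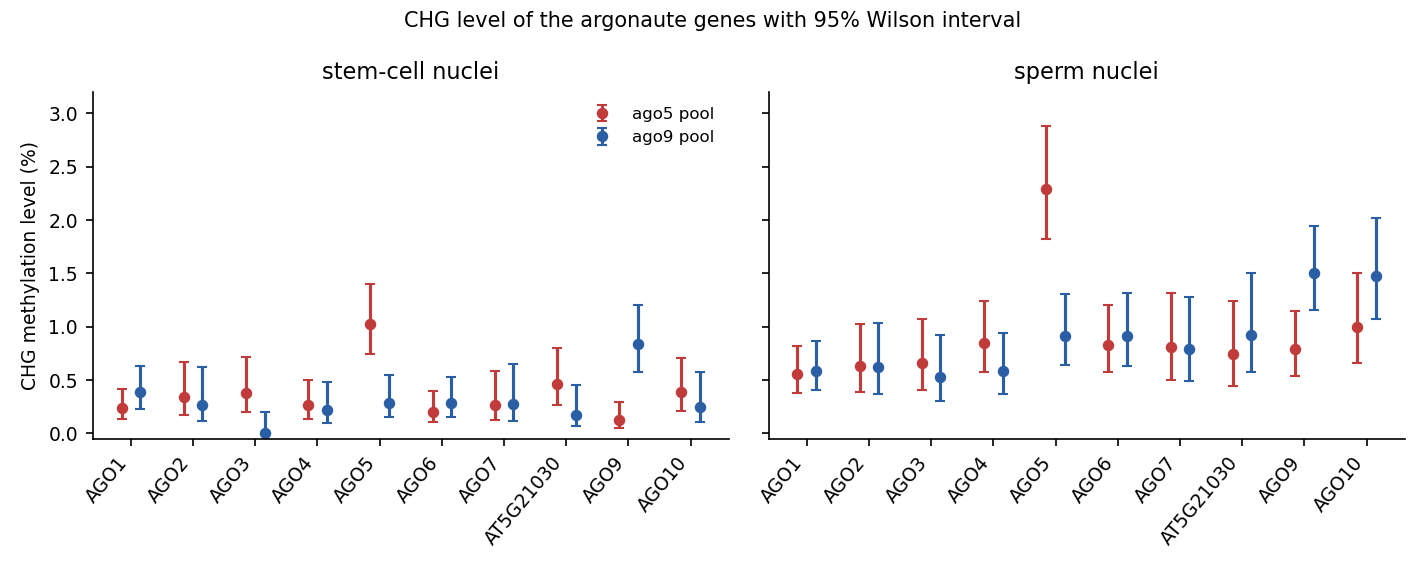
CHG methylation level in percent over each of the 10 argonaute genes in the ago5 (red) and ago9 (blue) pools of stem-cell nuclei (left) and sperm nuclei (right), with Wilson 95% intervals that cover counting error. In stem-cell nuclei the ago5 pool stands out at AGO5 (1.02%) and the ago9 pool at AGO9 (0.835%), and at both genes the intervals of the sperm pools do not overlap either.

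Averaged over features without weights, the 2 mutants had almost the same CG methylation, and CHG and CHH methylation of transposons was slightly lower in ago5. The CG result depended on the weighting, since over pooled calls, which weight features by depth, ago5 was 0.5003 points higher in transposable element CG and -0.5001 points apart in CHG. Mean levels were taken over features with at least 10 calls in both pools, and differences are ago5 minus ago9 in percentage points with a 95% counting half-width. Transposable elements averaged 54.4% CG in both ago5 and ago9, a difference of 0.00688 ± 0.121 points over 17869 elements. Their mean CHG level was 26.9% in ago5 and 27.4% in ago9, a difference of -0.531 ± 0.134 points over 17027 elements, and wt21 had 27.6% and ago59 26.3%. Their mean CHH level was 6.56% in ago5 and 6.70% in ago9, a difference of -0.139 ± 0.0499 points over 27554 elements. In CHH wt21 (6.64%) lay between the mutants, in CHG it was above both, and ago59 was the lowest of the 4 pools in both contexts (6.51% in CHH).

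Transposable element genes, the annotated coding units of transposons, had the largest mean CHG difference in points of the 4 classes. Their mean was 42.8% in ago5 and 43.8% in ago9 (44.1% in wt21 and 42.0% in ago59), which is -1.07 ± 0.142 points over 3777 genes, or -2.44% of the ago9 level. Their CHH mean was 6.74% in ago5 and 7.00% in ago9, a difference of -0.256 ± 0.0410 points, while CG was 77.3% in both pools with a difference of 0.00445 ± 0.118. Over pooled calls these 3 differences were -0.753 in CHG, -0.128 in CHH and 0.264 in CG. Pseudogenes differed by -0.322 ± 0.287 points in CHG, and by 0.214 points, the opposite direction, over pooled calls. Other genes averaged 12.7% CG in ago5 and 12.8% in ago9 (-0.0270 ± 0.0261 points), 2.38% and 2.44% CHG (-0.0528 ± 0.0235 points), and 0.790% and 0.796% CHH (-0.00600 ± 0.00809 points). Over pooled calls the direction in genes turned, to 0.0538 points in CG, 0.0210 in CHG and 0.00708 in CHH. Relative to the ago9 level, the mean CHG difference was -1.93% in transposable elements, -2.37% in pseudogenes and -2.17% in other genes, near the -2.44% of transposable element genes. The sperm pools, which share no library with the stem-cell pools, had a lower CHG mean in ago5 as well, by -1.74 ± 0.14 points over transposable elements and -2.89 ± 0.15 over transposable element genes. Their CHH difference was -0.334 ± 0.0501 points over transposable elements, beside chloroplast CHH levels of 1.34% in ago5 and 4.56% in ago9 sperm. Gene CHH means in the same sperm pools were 1.18% and 1.19%. The part of incomplete conversion in the sperm differences was not tested.

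**Figure D2:**
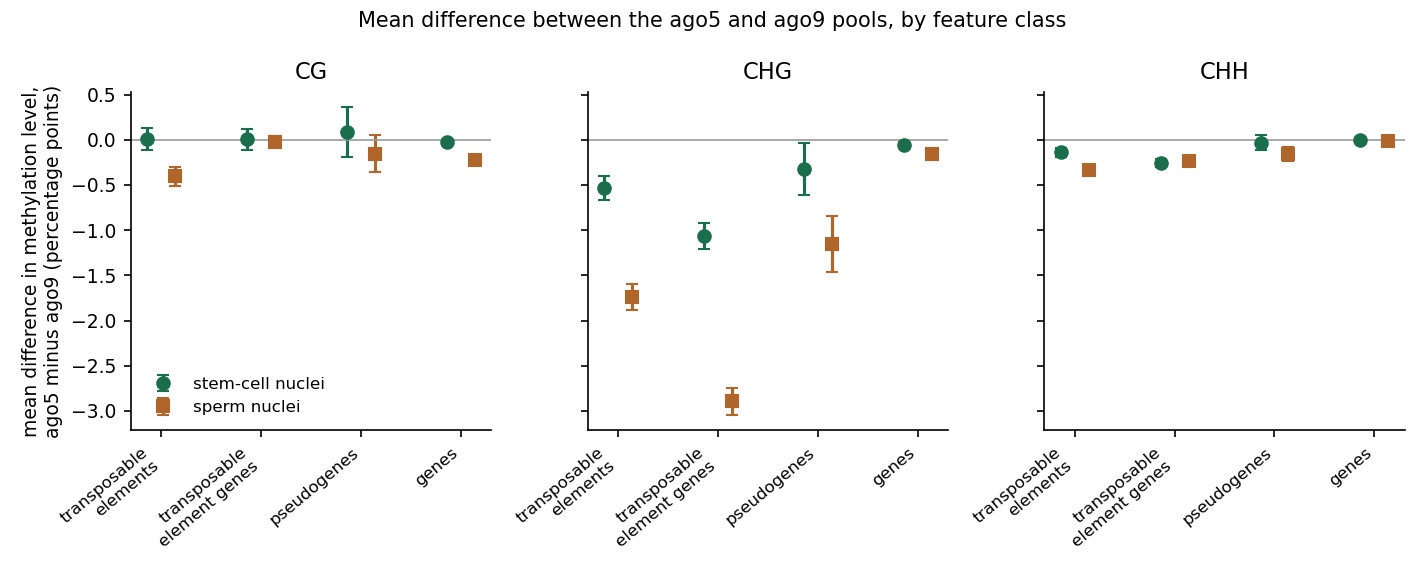
Mean difference in methylation level, ago5 minus ago9 in percentage points, for each feature class and context in stem-cell and sperm pools, with 95% counting half-widths. CG differences of transposons in stem-cell nuclei lie at 0 within their error, and CHG differences of transposable elements (-0.531) and transposable element genes (-1.07) lie below it, as do those of sperm.

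The mean CHG difference in points was larger for pericentromeric transposable elements than for those on the arms. The counting intervals of the 2, which leave out variation between replicates, did not overlap. Arm elements also had the lower CHG level, so the contrast in points is not one relative to level. Pericentromeric sequence was defined as windows of 100 kb that are at least 50% covered by transposable elements or their genes. Pericentromeric elements averaged 39.06% CHG in ago5 and 39.95% in ago9, a difference of -0.889 ± 0.209 points over 6774 elements. Elements on the chromosome arms averaged 18.9% and 19.2%, a difference of -0.294 ± 0.175 points over 10253 elements. Over pooled calls the pericentromeric difference was -0.89 points and that of the arms -0.00286 points. Elements longer than 4000 bp had nearly equal differences in both places, -1.04 ± 0.136 points in the pericentromere, where the means were 46.8% in ago5, 47.8% in ago9, 48.2% in wt21 and 45.9% in ago59, and -1.04 ± 0.361 points on the arms, where it was -0.526 over pooled calls. Arm elements of 2000 to 4000 bp had the opposite sign, 0.272 ± 0.643 points, an interval that includes 0, against -1.29 ± 0.319 points for pericentromeric elements of that length. In the pericentromere the CHG difference was -0.507 ± 0.463 points up to 500 bp and between -0.877 and -1.29 points in the longer classes. Over pooled calls it was -0.924 points at 2000 to 4000 bp and -0.969 points above 4000 bp.

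CHH was also lower in ago5 for long pericentromeric elements. The difference was -0.352 ± 0.0888 points at 2000 to 4000 bp (-0.185 over pooled calls) and -0.240 ± 0.0384 above 4000 bp (-0.200 over pooled calls). CG differed by -0.696 ± 0.264 points in pericentromeric elements of 2000 to 4000 bp, but by -0.0389 points over pooled calls, and by -0.149 ± 0.119 points in those above 4000 bp. Genes in the pericentromere had a mean CHG level of 18.1% in ago5 and 18.9% in ago9, a difference of -0.729 ± 0.260 points over 1350 genes (-0.2 over pooled calls). Genes on the arms differed by -0.0232 ± 0.0218 points over 30914 genes, and by 0.0127 points over pooled calls.

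**Figure D3:**
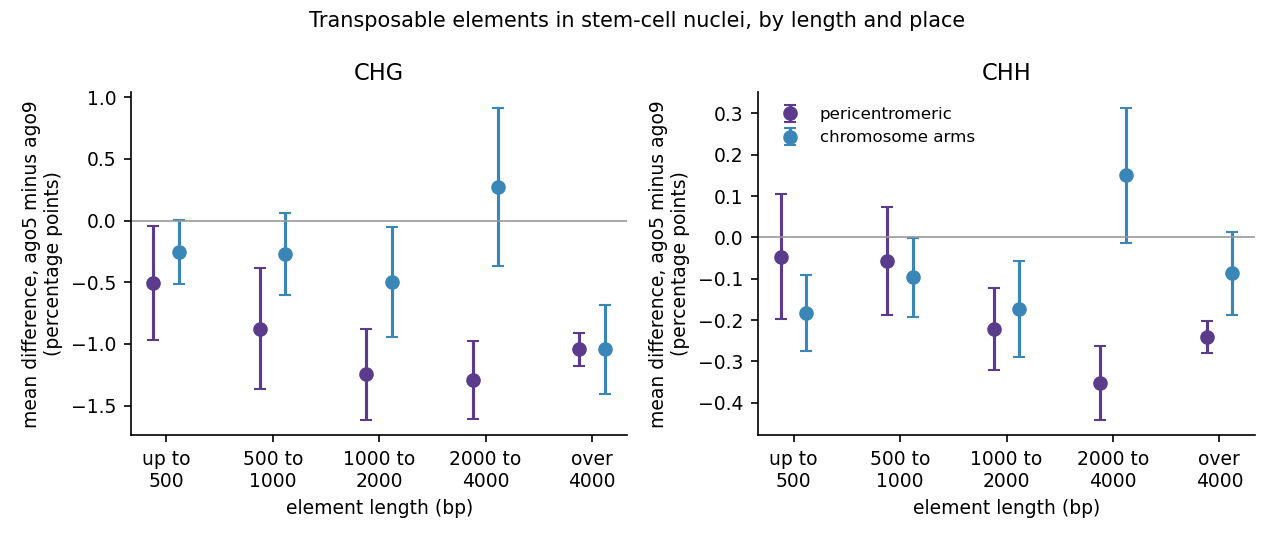
Mean CHG (left) and CHH (right) difference of transposable elements, ago5 minus ago9 in percentage points, by element length for pericentromeric and arm elements, with 95% counting half-widths. In CHG pericentromeric elements are below 0 in every length class. Arm elements of 2000 to 4000 bp have means above 0 in both contexts, with intervals that include 0 (0.272 ± 0.643 points in CHG and 0.151 ± 0.164 in CHH).

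A difference of 10 points or more, with at least 10 calls in both pools, was used to call single features different. Among transposable elements 2020 were higher and 1948 lower in ago5 in CG, which is 22.2% of those measured. In CHG 1783 were higher and 2030 lower (22.4%), an order that turned to 1947 higher and 1859 lower when levels were centred on the median difference of methylated elements (-0.87 points). In CHH 1388 were higher and 1564 lower (10.7%). Of transposable element genes, 136 were higher and 97 lower in CG (6.15%), 147 and 218 in CHG (9.66%), and 5 and 20 in CHH (0.657%). Genes were called less often, with 390 higher and 367 lower in CG (2.35%), 175 and 255 in CHG (1.33%), and 53 and 54 in CHH (0.328%). Over all nuclear features the share called was 9.19% in CG, 8.67% in CHG and 4.77% in CHH. Fewer features were called at higher depth. With at least 100 calls in both pools 4.32% of transposable elements were called in CG and 6.25% in CHG, and of genes 1.3% and 0.4%. The threshold cut through a continuous range, with 675 nuclear features between 10 and 11 points apart in CG and 764 between 9 and 10 points. Fisher's exact test with Benjamini-Hochberg adjustment, which compares the 2 pools and not the genotypes, called 184 genes higher (0.57%) and 174 lower (0.539%) in ago5 in CG, and 6 (0.0186%) and 16 (0.0496%) in CHG. Only genes that also differed by 10 points were counted there.

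Genes called in CG were short and thinly covered. Their median length was 553 bp, against 1857 bp for the other genes measured, and their median depth in ago9 was 98 CG calls against 668. MicroRNA genes were called in CG in 18 cases upward and 17 downward of 231 (15.2%), the highest share of 11 kinds of gene. Long non-coding RNA genes were called in 95 and 86 of 3380 (5.36%). Of 27087 protein-coding genes, 237 were higher and 223 lower (1.70%). In CHG, 6 microRNA genes were higher and 17 lower of 235 (9.79%). Calls in CG and CHG coincided in part. Of genes, 51 of 368 called higher in CG were also called higher in CHG (13.9%, and 29.8% of the 171 called higher in CHG), and 52 of 347 were lower in both (15.0%, and 21.4% of 243). Among transposable elements 399 were called higher in both CG and CHG (27.5% of those higher in CG and 27.3% of those higher in CHG), and 207 were higher in CG and lower in CHG.

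The sperm pools gave a second reading of the same pair of genotypes, from other libraries. Of 372 genes called higher in CG in ago5 stem-cell nuclei and measured in sperm, 110 were at least 10 points higher in ago5 sperm (29.6%) and 15 at least 10 points lower (4.03%). Of 341 genes called lower, 110 were also at least 10 points lower in ago5 sperm (32.3%) and 8 higher (2.35%). Over all genes the sperm pools differed by 10 points in CG in 0.844% upward and 1.21% downward. With at least 100 calls in all 4 pools, 66 of 180 genes recurred upward (36.7%, with 7 opposite) and 63 of 166 downward (38.0%, with 1 opposite). Their median sperm differences were 5.61 and -7.38 points, beside -0.0940 points over all such genes. Across 32103 genes the stem-cell and sperm CG differences had a Pearson r of 0.45 and a Spearman rho of 0.278, given as a description since genes are not independent replicates.

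Gene calls in CHG and calls in transposons recurred less. Of 163 genes higher in CHG in ago5 stem-cell nuclei, 18 were higher and 39 lower in ago5 sperm by 10 points, and of 236 lower genes 47 were lower and 20 higher, beside 0.392% upward and 0.853% downward over all genes in sperm. Transposable elements called higher in CG were higher in sperm in 230 of 1553 (14.8%) and lower in 179, and those called lower were lower in 279 of 1497 (18.6%) and higher in 83, beside 4.25% upward and 6.03% downward over all elements in sperm. In CHG, 223 of 1306 higher elements were higher in sperm and 343 lower, and 413 of 1576 lower elements were lower and 254 higher. In CHH, 170 of 1220 higher elements were higher in sperm and 188 lower, and 215 of 1378 lower elements were lower and 199 higher. Over all transposable elements the sperm pools differed by 10 points upward in 7.3% and downward in 12.6% in CHG, and in 4.02% and 4.83% in CHH. Differences between these shares were not tested.

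**Figure D4:**
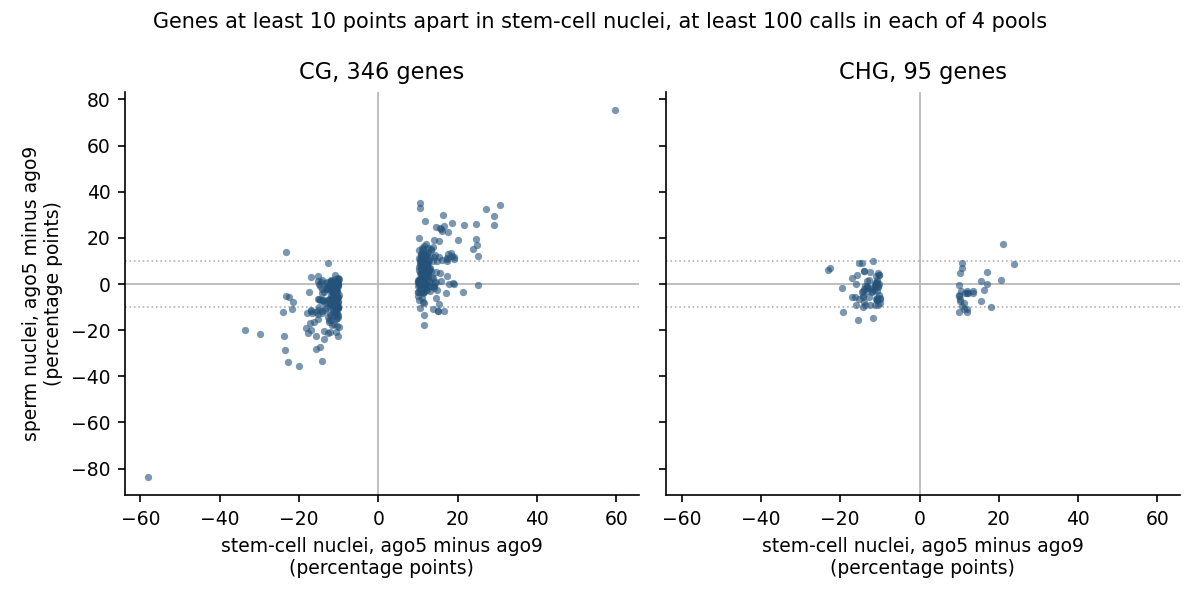
Difference in CG (left) and CHG (right) level, ago5 minus ago9 in percentage points, in stem-cell nuclei (horizontal axis) against sperm nuclei (vertical axis), 1 point per gene called in stem-cell nuclei with at least 100 calls in each of the 4 pools. In CG, 66 of 180 genes on the right and 63 of 166 on the left lie beyond the dotted 10-point lines on the same side in sperm, and in CHG 1 of 30 and 3 of 65 do.

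At these genes wt21 lay more often on the side of ago5 in both directions. For 370 genes called higher in CG in ago5 and also measured in the other stem-cell pools, wt21 lay nearer to ago5 in 220 and ago59 in 193. Both lay nearer to ago5 in 134 and both nearer to ago9 in 91. For 339 genes called lower in ago5, wt21 lay nearer to ago5 in 205 and ago59 in 172, with both nearer to ago5 in 121 and both nearer to ago9 in 83. Both directions thus held genes at which wt21 and ago59 lay nearer to ago5 and genes at which both lay nearer to ago9. Nearness does not show that a pool stood apart. At the genes called higher, the medians were 49.5% in ago5, 42.2% in wt21, 41.2% in ago59 and 33.3% in ago9. The ago9 pool was also the shallower of the 2, and the part of depth in these counts was not tested.

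The features described singly were those with the largest stem-cell difference per context and direction among features with at least 100 calls in both stem-cell pools and at least 10 points of difference in the same direction in sperm. Their sperm values were part of that rule and are a description only. The largest CG difference upward was at AT3G05955, a long non-coding RNA gene of 544 bp in the pericentromere of chromosome 3. The largest downward was at AT2G08125, a long non-coding RNA gene of 321 bp on chromosome 2. A stretch of 300 of the 544 bases of AT3G05955 (chr3:11586005-11586304, minus strand) and 300 of the 321 bases of AT2G08125 (chr2:10732924-10733223, plus strand) are shown to place their CG sites, from the RefSeq assembly TAIR10.1 and 5′ to 3′. They hold 16 of the 24 CG cytosines of AT3G05955 and all 22 of AT2G08125. Calls are not given per site, so which of these were read is not known. Capitals mark the C of each CG on the printed strand and the G that pairs with the C of the CG on the other strand.
AT3G05955: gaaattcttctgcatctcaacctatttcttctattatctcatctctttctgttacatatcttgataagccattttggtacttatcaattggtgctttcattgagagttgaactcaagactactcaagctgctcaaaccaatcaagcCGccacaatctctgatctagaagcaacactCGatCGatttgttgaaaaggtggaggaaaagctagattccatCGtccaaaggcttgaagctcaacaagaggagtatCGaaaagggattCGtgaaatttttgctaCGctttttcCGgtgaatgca
AT2G08125: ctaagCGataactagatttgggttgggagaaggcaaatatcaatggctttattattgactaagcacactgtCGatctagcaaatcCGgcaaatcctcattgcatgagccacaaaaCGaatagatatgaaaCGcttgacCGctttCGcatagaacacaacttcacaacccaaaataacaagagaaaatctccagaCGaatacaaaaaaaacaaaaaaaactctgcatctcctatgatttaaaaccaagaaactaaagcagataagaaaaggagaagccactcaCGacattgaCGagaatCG

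At AT3G05955, 85 of 141 CG calls were methylated in ago5, or 60.3% (52.0 to 68.0), and 1 of 183 in ago9, or 0.546% (0.0965 to 3.03). wt21 had 138 of 206, or 67.0%, and ago59 137 of 211, or 64.9%. The ago9 pool alone was low, and the other 3 stem-cell pools lay between 60.3% and 67.0%. Its CHG level was 20.9% in ago5 (31 of 148 calls) and 0 of 105 calls in ago9, with 13.8% in wt21 and 13.6% in ago59. In sperm, the CG level was 78.0% in ago5 and 2.74% in ago9, beside 80.7% in wt21 and 77.6% in ago59. A neighbouring gene 754 bp away, AT3G29755, had CG levels of 84.1% in ago5 and 83.1% in ago9. At AT2G08125 the pattern was of another kind, with 4 of 123 CG calls methylated in ago5, or 3.25% (1.27 to 8.06), and 87 of 142 in ago9, or 61.3% (53.1 to 68.9). wt21 had 12.0% and ago59 0 of 126 calls, so here ago9 was the high pool. Sperm showed 0.806% in ago5, 84.4% in ago9, 26.6% in wt21 and 1.40% in ago59.

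Other features with higher CG in ago5 included AT5G00680, a non-coding RNA gene on chromosome 5, with 57 of 111 calls or 51.4% in ago5 and 16 of 114 or 14.0% in ago9. There wt21 had 14.4% and ago59 20.7%, so ago5 was the high pool. At the transposable element AT2TE05315 the levels were 79.0% in ago5, 44.4% in ago9, 66.3% in wt21 and 68.1% in ago59, with ago9 lowest. The element beside it, AT2TE05320, had 88.3% in ago5 and 55.9% in ago9. AT5TE13160, an element inside the gene AT5G11370, had 39.5% in ago5, 7.41% in ago9, 42.1% in wt21 and 4.12% in ago59, so ago9 and ago59 were the low pair. AT4TE29035 had 89.4% in ago5 and 57.5% in ago9, with 62.3% in wt21 and 77.6% in ago59.

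Among features with lower CG in ago5 were 2 protein-coding genes. AT5G26690 had 42 of 235 CG calls methylated in ago5, or 17.9%, and 125 of 243 in ago9, or 51.4%, beside 17.0% in wt21 and 41.5% in ago59. AT3G22770 had 255 of 527 calls, or 48.4%, in ago5 and 361 of 462, or 78.1%, in ago9, beside 73.0% in wt21 and 65.2% in ago59, and its CHG level was 15.1% in ago5 and 30.6% in ago9. Of the length of AT3G22770, 58.9% overlaps the gene SOL1, so part of its calls count in both. AT3G22945, a pseudogene inside an exon of the G protein subunit gene AGG2, had 48.6% in ago5, 74.7% in ago9, 75.8% in wt21 and 57.1% in ago59, with ago5 lowest. The pseudogene AT3G29252 had 44.4% in ago5 and 84.6% in ago9, with 60.1% in wt21 and 85.2% in ago59. CLE4, which encodes a small peptide of the CLAVATA3/ESR-related family and was singled out after its values were seen, had 25 of 269 calls or 9.29% in ago5 and 47 of 141 or 33.3% in ago9. wt21 had 28.5% and ago59 11.6% at CLE4, so ago5 and ago59 were the low pair.

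**Figure D5:**
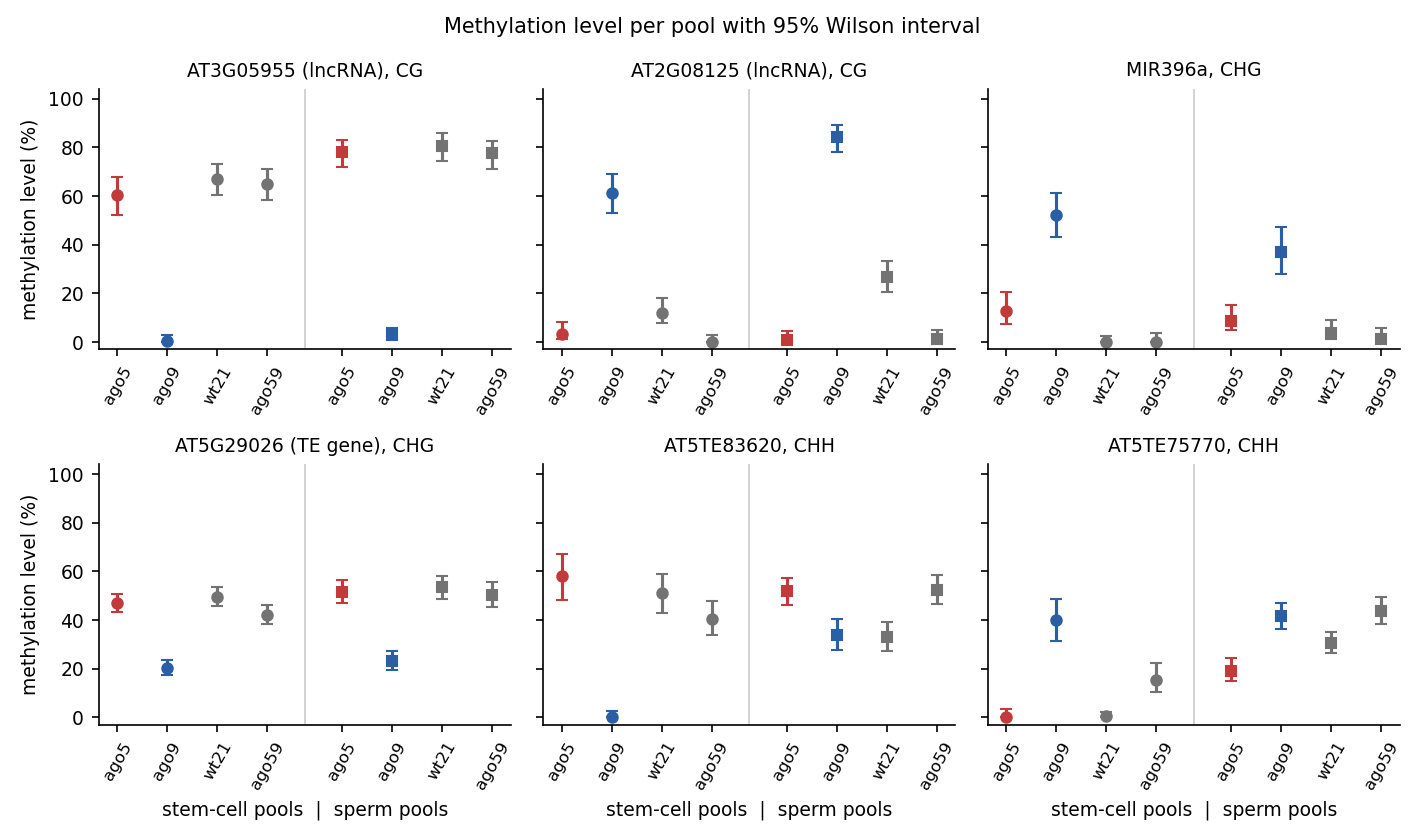
Methylation level in percent of 6 features, 1 with the largest difference per context and direction, in the ago5, ago9, wt21 and ago59 pools of stem-cell nuclei (circles) and sperm nuclei (squares), with Wilson 95% intervals. In stem-cell nuclei ago9 is the low pool at AT3G05955 (0.546%), AT5G29026 (20.3%) and AT5TE83620 (0%) and the high pool at AT2G08125 (61.3%), MIR396a (52.2%) and AT5TE75770 (39.8%).

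In CHG, the largest difference upward was at AT5G29026, a transposable element gene of 1256 bp on chromosome 5. There, 318 of 675 CHG calls were methylated in ago5, or 47.1% (43.4 to 50.9), and 119 of 587 in ago9, or 20.3% (17.2 to 23.7), beside 49.7% in wt21 and 42.2% in ago59. The other 2 contexts had the same order, with CG levels of 83.9% in ago5, 55.7% in ago9, 84.7% in wt21 and 83.6% in ago59, and CHH levels of 7.19%, 2.46%, 7.15% and 7.69%. The ago9 pool was the low one in all 3 contexts. A transposable element gene 1606 bp away, AT5G29028, had CHG levels of 43.3% in ago5 and 32.7% in ago9, and on the other side AT5G29024 had 43.1% and 41.5%. The pseudogene AT3G43251 had 27.3% CHG in ago5 and 7.82% in ago9, and the transposable element gene AT2G14420 had 38.9% and 19.5%, with ago59 at 30.9% and 31.3%, above ago9 at both. AT1TE30840 had 33.9% in ago5 and 16.8% in ago9, with wt21 lower still at 7.43%. Fisher's exact test on the 2 pools gave an adjusted p of 0.161 there.

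The largest CHG difference downward was at AT2G10606, the gene of microRNA 396a (MIR396a), 151 bp on chromosome 2. The miR396 family targets transcripts of GROWTH-REGULATING FACTOR genes, which promote cell proliferation in leaves. The gene (chr2:4142323-4142473, minus strand) and the stretches of its 2 mature arms, ath-miR396a-5p (chr2:4142443-4142463) and ath-miR396a-3p (chr2:4142331-4142351), are printed below from RefSeq TAIR10.1 as DNA of the minus strand. Here capitals mark the C of each CHG and the G that pairs with the C of a CHG on the other strand.
MIR396a: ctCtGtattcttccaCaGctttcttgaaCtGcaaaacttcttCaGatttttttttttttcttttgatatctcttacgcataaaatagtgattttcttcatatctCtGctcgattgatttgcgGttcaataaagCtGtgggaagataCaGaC
ath-miR396a-5p: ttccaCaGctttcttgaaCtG
ath-miR396a-3p: GttcaataaagCtGtgggaag
Of the 16 marked positions of the gene, 4 lie in the 5p arm and 3 in the 3p arm. The table gives calls over the whole gene and not per site, so a level cannot be given for an arm. In ago5, 13 of 102 CHG calls were methylated, or 12.7% (7.60 to 20.6), and in ago9 59 of 113, or 52.2% (43.1 to 61.2). wt21 had 0 of 145 and ago59 0 of 95 methylated CHG calls. Both single mutants were therefore above the wild type and ago59, and ago9 was the highest pool. CG showed the same order with 8 of 36 calls or 22.2% in ago5, 15 of 28 or 53.6% in ago9, and 0 of 47 in wt21 and 0 of 46 in ago59. In sperm, the CHG level was 8.77% in ago5, 37.1% in ago9, 3.70% in wt21 and 1.09% in ago59.

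The 4 other features lower in CHG in ago5 were on chromosomes 4 and 5. AT4TE22180 had 21.8% in ago5, 46.4% in ago9, 41.1% in wt21 and 31.5% in ago59. The transposable element gene AT5G45576 had 46.2%, 67.7%, 55.8% and 53.0% in the same order of pools, and another, AT4G12426, had 41.2%, 61.3%, 51.5% and 60.9%. AT5TE39350 had 33.2%, 52.8%, 37.2% and 46.9%. At all 4, ago5 was the lowest and ago9 the highest of the 4 stem-cell pools. Choosing features by a large difference between ago5 and ago9 favours that order. Fisher's exact test on the 2 pools gave an adjusted p of 0.284 at AT4G12426 and 0.142 at AT5TE39350. It gave 0.00643 at AT4TE22180 and 0.0269 at AT5G45576.

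In CHH, the element with the largest difference in each direction was annotated inside a gene and had nearly all of its CHH cytosines on 1 strand. AT5TE83620 (chr5:23256200-23256417) lies 94.5% within the coding sequence of AIL5, an AINTEGUMENTA-like transcription factor gene, and AT5TE75770 (chr5:21031973-21032425) lies wholly within the coding sequence of AT5G51770. AT5TE83620 is shown whole on the minus strand, and AT5TE75770 by 300 of its 453 bases (chr5:21031976-21032275, minus strand), both from RefSeq TAIR10.1, to display that composition. Capitals mark the C of each CHH and the G that pairs with the C of a CHH on the other strand.
AT5TE83620: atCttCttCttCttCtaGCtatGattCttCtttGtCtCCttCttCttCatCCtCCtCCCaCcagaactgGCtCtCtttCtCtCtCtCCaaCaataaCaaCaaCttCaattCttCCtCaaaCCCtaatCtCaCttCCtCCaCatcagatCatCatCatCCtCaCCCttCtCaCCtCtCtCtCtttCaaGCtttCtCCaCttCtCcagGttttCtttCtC
AT5TE75770: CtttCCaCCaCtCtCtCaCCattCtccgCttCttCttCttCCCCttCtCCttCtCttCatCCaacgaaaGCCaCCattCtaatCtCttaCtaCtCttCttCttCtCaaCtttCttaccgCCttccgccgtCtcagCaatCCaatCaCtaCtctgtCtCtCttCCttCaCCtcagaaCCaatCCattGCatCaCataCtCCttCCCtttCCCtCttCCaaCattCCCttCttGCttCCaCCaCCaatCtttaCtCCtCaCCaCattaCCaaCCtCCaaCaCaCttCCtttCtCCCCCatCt
Of the 85 CHH cytosines of AT5TE83620, 79 lie on the same strand (92.9%), and of the 175 of AT5TE75770, 167 do (95.4%). AT5TE83620 had 58 of 100 CHH calls methylated in ago5, or 58.0% (48.2 to 67.2), and 0 of 140 in ago9, which allows up to 2.67%. wt21 had 77 of 151, or 51.0%, and ago59 40.6%, so ago9 was the low pool. AT5TE75770 had 0 of 113 methylated CHH calls in ago5, which allows up to 3.29%, and 47 of 118 in ago9, or 39.8% (31.5 to 48.8). wt21 had 1 of 248, or 0.403%, and ago59 15.5%, so ago9 was the high pool. These values rest on few reads, with 1.18 calls per CHH site in ago5 and 1.65 in ago9 at AT5TE83620 and 0.65 and 0.67 at AT5TE75770. At AT5TE83620 the CHG calls, 18 in ago5 and 12 in ago9, were all unmethylated. In sperm, the CHH level of AT5TE83620 was 51.9% in ago5, 34.0% in ago9, 33.1% in wt21 and 52.5% in ago59, and that of AT5TE75770 was 19.1%, 41.5%, 30.7% and 43.8%. The wt21 pools of the 2 cell types thus differed widely at AT5TE75770.

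Of the other 8 features with the largest CHH differences, those higher in ago5 were AT1TE71415 (71.9% in ago5 and 38.7% in ago9), AT1TE49855 (78.4% and 53.8%), AT5TE74850 (23.2% and 0%) and AT3TE30150, which lies in coding sequence of DDL, a gene of microRNA biogenesis (24.3% and 1.08%). Lower were AT5TE27105 (2.00% and 40.1%), AT2TE26225 (5.31% and 35.0%), AT5TE13050, in coding sequence of OCP3 (29.5% and 56.9%), and AT3TE51760 (8.22% and 34.6%). In wt21 the 4 higher ones had 60.1%, 87.7%, 9.09% and 21.4%, nearer to ago5 than to ago9 at all but AT5TE74850. In wt21 the 4 lower ones had 10.8%, 5.88%, 29.5% and 11.9%, in each case nearer to ago5 than to ago9. Over all elements called in CHH, wt21 lay nearer to ago9 in 717 of 1190 called higher and nearer to ago5 in 950 of 1344 called lower. Over the 10 features the share of CHH cytosines on 1 strand ran from 57.8% to 100%. Among transposable elements with at least 100 CHH calls in both pools, 5.01% were called in either direction. At least 90% of CHH cytosines lay on 1 strand in 22 of 377 called higher in ago5 (5.84%), 35 of 456 called lower (7.68%) and 212 of 16636 measured (1.27%). Called elements had a median of 25.9% G and C when higher and 26.6% when lower, against 32.0% over all measured, and medians of 2.18 and 2.09 ago5 calls per CHH site against 3.5. Composition and depth thus moved with the CHH calls, and their part in the result was not tested.

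Genes of the small RNA and methylation machinery, meristem regulators and known epialleles were also read, 95 in all and all measured. Of these, 2 were called higher in ago5 in CG and 0 lower, beside 2.35% of all genes called in CG, and 0 were called in CHG and in CHH. PAI2, a tryptophan biosynthesis gene that is silenced by methylation in some accessions, had 70 of 218 CG calls methylated in ago5, or 32.1% (26.3 to 38.6), and 27 of 208 in ago9, or 13.0% (9.08 to 18.2). wt21 had 15.7% and ago59 16.1% at PAI2, so ago5 stood above the other 3 pools. HISN6B, a histidine biosynthesis gene, had 91.3% (84.2 to 95.3) in ago5 and 76.5% (67.2 to 83.8) in ago9, with 83.6% in wt21 and 75.8% in ago59. In sperm PAI2 had 27.0% in ago5 and 16.2% in ago9, and HISN6B 97.2% and 95.3%.

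Among the 7 DNA methyltransferase genes CG differences ran from -0.714 to 5.00 points, the highest at DRM3 with 27.8% in ago5 and 22.8% in ago9. The 4 DNA demethylase genes ran from -1.52 to 0.447 points. Over 21 genes of RNA-directed DNA methylation the range was -9.02 to 7.18 points. Its low end was SHH1, which recruits RNA polymerase IV to methylated histones, with 19.4% in ago5 and 28.4% in ago9, and its high end was IDN2 with 39.1% and 32.0%. The 12 maintenance genes had their lowest value at SUVH5, a histone methyltransferase gene, with 40.5% in ago5 and 49.96% in ago9. Sperm gave 24.7% and 32.4% at SHH1 and 49.5% and 55.1% at SUVH5. The 29 meristem genes ran from CRN, with 14.1% in ago5 and 17.6% in ago9 (-3.54 points), to KNAT1, with 3.83% and 1.87%. CLV3, which encodes the peptide signal of shoot stem cells, had 0 of 83 and 0 of 93 methylated CG calls, and WUS, which maintains them, had 0.471% in ago5 and 0.284% in ago9. SDC, an F-box gene silenced by methylation of repeats in its promoter, had 9.01% in ago5 (7.51 to 10.8) and 2.65% in ago9 (1.83 to 3.83), beside 9.81% in wt21 and 7.71% in ago59. FWA, a gene that delays flowering when its promoter loses methylation, had 15.3% in ago5 and 12.6% in ago9. The SDC and FWA levels are over the whole annotated gene, and promoters were not read separately. Neither gene was among those called.

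Along the chromosomes, the share of genes called in CG was highest in the 1 Mb window of chromosome 1 that starts at 14 Mb. It was 22.2% there at a minimum of 10 calls, against a median window of 1.93%. Windows needed at least 20 genes, so 1 gene can weigh heavily in a share. With at least 100 calls, a minimum chosen after seeing the data, CG calls of genes clustered most between 3 and 4 Mb of chromosome 2. In that window 9 of 79 genes were called, all higher in ago5 (11.4%, against a median window of 1.12%). Their median CG level was 40.6% in ago5, 28.3% in ago9, 37.3% in wt21 and 36.7% in ago59, with wt21 above ago9 at 9 of 9. Calling genes as higher in ago5 than in ago9 favours that order, and neighbouring genes are not independent readings. In sperm, 7 of the 9 had at least 10 CG calls in both pools, with medians of 97.7% in ago5 and 97.6% in ago9. A large insertion of mitochondrial DNA is known in this region of chromosome 2. Mitochondrial features had a stem-cell CG level of 10.2% in ago5, 8.72% in ago9, 9.78% in wt21 and 9.14% in ago59. In the sperm pools they had 92.0%, 90.6%, 92.4% and 90.2% in the same order. They made up 0.321% of CG calls in ago5 and 0.343% in ago9 stem-cell nuclei, against 0.0435% and 0.0498% in sperm. Their part in the gene values was not tested. Near the mutated loci, 2.78% of 1151 arm genes within 2 Mb of AGO5 were called in CG, 12 higher and 20 lower, against 2.03% of arm genes farther away. Within 2 Mb of AGO9, 1.60% of 1184 were called, 10 higher and 9 lower, against 2.07%. The mean CHG difference of transposable elements was higher in ago5 in 50 of 120 windows of 1 Mb at 10 calls or more. At 100 calls or more, a minimum chosen after seeing the data, it was higher in ago5 in 4 of 41.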

How the data were processed

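For each annotated feature the deposited table gives, as whole numbers, how many cytosine calls were methylated and how many there were in all, with a pair of columns for every genotype, context and tissue, per the file headers. The levels that the authors deposited were not used. Reads were handled with Trim Galore, Bismark and bedtools 2.30.0 on TAIR10, per the submitters' processing notes. Libraries were made with the Pico Methyl-Seq kit from 1 to 5 ng of DNA, per the labels' protocols. The molecule is listed as RNA in the labels, which the protocol's genomic DNA goes against. All 48 columns of calls were mapped, and 0 belonged to no sample. The column named wt was read as wt21. Whether replicates and runs were summed into a column is not given in the sources used here. With 1 column per group, the replicate tests planned could not be used, and the plan for that case, values without a test, was followed.

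A level was methylated over total calls, for features with at least 10 calls in both pools. Half-widths (95%) came from the binomial variance of each feature, and single levels have Wilson intervals. Depth was 289170095 calls in ago5 and 233474571 in ago9, so precision is lower in ago9. A feature was called at 10 points of difference. Features were named as the 5 largest stem-cell differences per context and direction with at least 100 calls in both pools and at least 10 points the same way in sperm. Of overlapping features the larger difference was kept. Gene lists were reported by count and range, with every called member named. The comparison, lists and rules were chosen with earlier results of these data known. Alternatives were 5, 20 and 100 calls, 20 points, medians, levels over pooled calls, centring, elements free of genes, and Fisher's exact test. Sequences were read from the RefSeq assembly TAIR10.1. Scripts, checked on simulated data, used Python 3.11.15, numpy 2.4.6, scipy 1.17.1, pandas 2.3.3 and matplotlib 3.10.9.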

Additional observations from a re-analysis of the deposited data

Results flagged for a closer look

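The 2 organelle genomes lie outside the comparisons of nuclear features. The chloroplast CHH level was 0.312% in the ago5 stem-cell pool, above the 0.303% of wt21. The mitochondrial CG level was 10.2% (10.086 to 10.416) in the ago5 stem-cell pool, above the 9.78% of wt21 and the 8.72% of ago9. In ago5 sperm it was 92.0%, where mitochondrial features made up 0.0435% of CG calls, against 0.321% in ago5 stem-cell nuclei. The calls do not tell mitochondrial DNA from its nuclear copy on chromosome 2. In the other 2 contexts the mitochondrial level of stem-cell nuclei was lower in ago5 than in wt21. It was 5.96% against 6.04% in CHG and 1.06% against 1.08% in CHH. The chloroplast CHH and mitochondrial CG levels were singled out because they are signals in unused features that exceed those of the wild-type pool. No cause was tested.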

How the results depend on the processing

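No paired analysis was possible because the deposited table has 1 column per group and context, and leaving out a replicate was not possible for the same reason. Depth limits single transposable elements most, at a median of 14 CHG calls in ago9. Numbers below give ago5 higher first, then lower. A minimum of 5 calls, and likewise centring on the median of methylated features, left the counts within 1.5 times of those reported, and leaving out elements that overlap genes left the 3 element means within their counting error (0.0444, -0.441 and -0.143 points). Centring shifted CHG by -0.87 points and turned the order of the transposable element CHG counts to 1947 and 1859. With mean levels taken over pooled calls, the difference was 0.5003 points in transposable element CG, and in genes it turned to 0.0538 points in CG, 0.0210 in CHG and 0.00708 in CHH. Chosen after seeing the data, the same weighting gave 0.264, -0.753 and -0.128 points in transposable element genes (CG, CHG, CHH), 1.07 in CG and 0.214 in CHG of pseudogenes, and 0.0127 in CHG of arm genes. The median difference was 0 in transposable element CHG and CHH and in gene CG and CHG. With at least 20 calls, elements called numbered 1225 and 1151 in CG and 1023 and 1182 in CHG. At 20 points they numbered 710 and 651 in CG, 616 and 783 in CHG and 382 and 447 in CHH, and genes 74 and 77, 43 and 60, and 12 and 13. Fisher's exact test called 205 and 154 elements in CG, 20 and 41 in CHG and 595 and 733 in CHH, and 184 and 174 genes in CG, 6 and 16 in CHG and 38 and 33 in CHH. A minimum of 100 calls, chosen after seeing the data, left 137 and 85 elements in CG, 119 and 187 in CHG and 377 and 456 in CHH, and 196 and 172 genes in CG, 36 and 77 in CHG and 24 and 26 in CHH. The small mean differences of genes thus depended on how features were weighted, and the cause was not tested.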
